A study of Mus musculus with 7 samples.

Results

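Notch signalling passes between touching cells. A ligand of the Delta or Jagged family on one cell binds a Notch receptor on its neighbour, the ADAM10 protease and then γ-secretase cut the receptor, and the freed intracellular part enters the nucleus. There it joins the DNA-binding protein RBPJ and a Mastermind-like coactivator (the Maml genes) to switch on targets such as Hes1, while RBPJ without Notch carries corepressors. Deltex proteins (the Dtx genes) are RING-type ubiquitin ligases that bind or modify this pathway, and in human cell lines DTX4 has also been linked to degradation of TBK1, a kinase upstream of type I interferon production. In mice, T cells without Notch1 and Notch2 form few T follicular helper (Tfh) cells, which support B cells in the germinal centre.

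The genes described here were 9 chosen by name, Dtx4, Dtx1, Dtx2, Notch1, Notch2, Rbpj, Hes1, Maml1 and Maml2, and their values are the rows of the deposited ATAC-seq peak list that carry these names. Of the 9 genes, 4 had a row, with 1 peak each, out of 6395 peaks in all. They were chosen with the values of this list in view, so these values are a description and no test is attached to them. ATAC-seq tags open DNA with a transposase. The cells were splenic Tfh cells sorted as CD4+ CD44+ GITR- PSGL-1lo CXCR5hi PD-1hi from B6.Sle1.Yaa mice aged 5 months. Both groups carried the lupus-prone Sle1 and Yaa loci, and no mice without them were compared. In 1 group the mice were given an antibody that the labels call anti-IFNA1 and the series title an IFNAR1 blockade (anti-IFNAR1 below, 4 samples), IFNAR1 being a chain of the type I interferon receptor. In the other they were given anti-rat IgG (control IgG, 3 samples), and both courses ran for 4 weeks with 2 doses each week. The labels do not state whether a sample is 1 mouse or a pool.

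Each listed peak was a site where coverage on the anti-IFNAR1 side exceeded a control IgG background at a q of 0.05. The list gives no value per sample, so no value below has a spread between mice, and a single library could carry a peak. Fragments at a peak's summit were recovered from the pileup, the depth-scaled coverage that the authors deposited. The anti-IFNAR1 side was 3.54 times as deep as the control IgG side, although 4 samples against 3 of the same depth would make that 1.33 times. Fold is the authors' value, (scaled anti-IFNAR1 fragments + 1) / (control background + 1), and the background is the highest of 4 estimates: at the summit itself, in the 1 kb or 10 kb around it, and the genome-wide rate of 0.132 fragments. Of the markers checked, 11 of 14 Tfh genes were listed, and Cxcr5, Icos and Il21 had no row. Over all 21900 protein-coding genes, 21.1% had a listed peak. None of 9 B cell genes, with Cr2 and S1pr3 of marginal zone B cells among them, and none of 6 CD8 T and NK cell genes had a row, the 1 listed of 7 myeloid and dendritic genes was Cd14, and the 1 listed of 4 regulatory T cell genes was Il2ra. A gene without a row had no named peak that was higher on the anti-IFNAR1 side, which does not say that its chromatin was closed, unchanged or lower. Listed markers were likewise sites higher on that side, so these counts do not establish which cells were present.

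Among the 9 genes, 1 Deltex gene, 1 receptor gene and 2 genes of the nuclear complex were listed. Dtx4 had the highest fold at 18.9, followed by Notch1 at 8.72, Maml1 at 7.79 and Rbpj at 4.84 in the authors' deposited table. The median of the 4 folds was 8.25, and 7.79 without Dtx4, beside 4.74 over all 6395 listed peaks and 4.76 over the 4632 peaks at a transcription start site (TSS). All 4 lay in the TSS section of the file. The share listed, 4 of 9, stood beside 21.1% of 21900 protein-coding genes with a listed peak, or 18.5% with a listed TSS peak. Since the genes were picked with the list known, nothing is read from that difference. The list ran to a q of 0.0496, and the member nearest to that edge was Rbpj with a q of 8.14e-08.

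**Figure D1:**
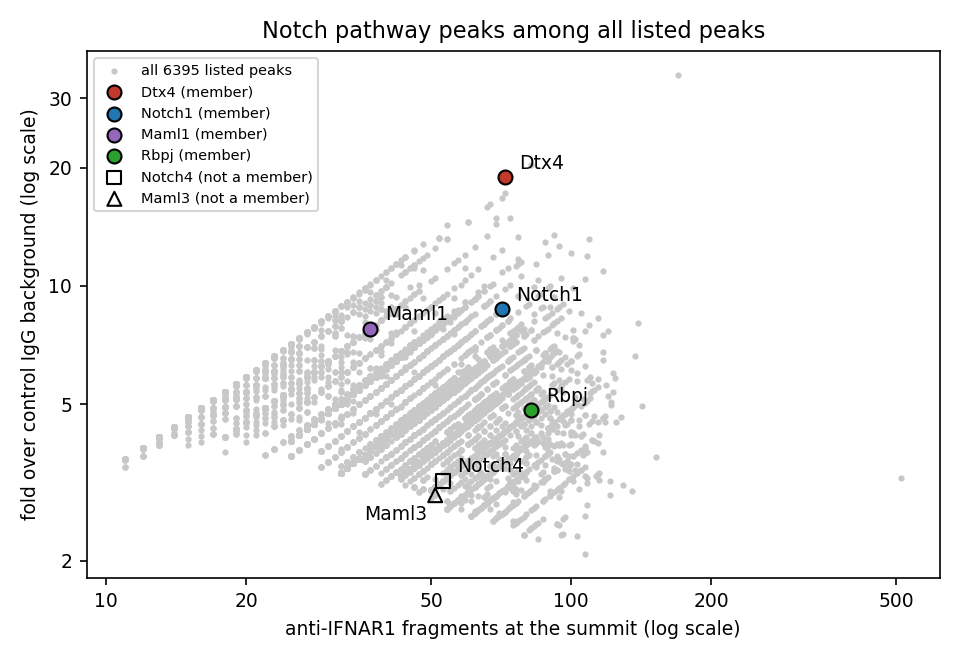
Each grey point is 1 of the 6395 listed peaks, with the number of anti-IFNAR1 fragments at its summit (x axis, log scale) and its fold over the control IgG background (y axis, log scale). Dtx4 (72 fragments, fold 18.9) lies on the upper edge of the cloud, Notch1 (71 fragments, fold 8.72) below it at nearly the same number of fragments, and Rbpj (82 fragments, fold 4.84) near the middle of the folds.

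The Dtx4 peak spanned chr19:12501147-12502246 (mm10, as the file gives it), 1099 bp wide. Its summit lay 73 bp downstream of the start of the transcript that the file assigned, on the minus strand, and the peak reached from 249 bp upstream to 850 bp downstream of that start. The summit held 72 anti-IFNAR1 fragments, which is 20.4 on the scale of the control depth (exact Poisson 95% interval 15.9 to 25.6, counting error only), against a control IgG background of 0.132. That background is the genome-wide rate, the lowest value possible, so the control side had 0 fragments at the summit, 0 in the surrounding 1 kb and at most 5 in the surrounding 10 kb, where the genome-wide rate alone would give 5.59. Equal coverage would have put 20.4 control fragments at the summit. A count of 0 has an upper limit of about 3 control fragments (1-sided Poisson 95%). Against that limit, the depth-scaled ratio at the Dtx4 summit was 6.78. The exact intervals given here are bounded on both sides, which makes this limit less strict than theirs. The ratio of 6.78 allows for counting error on the control side alone, not for that of the 72 anti-IFNAR1 fragments. PCR copies are also not independent molecules, and the site was listed because it was high.

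Dtx4 ranked 3 of 6395 peaks both by fold and by q, and 2 by fold among the TSS peaks. By the number of anti-IFNAR1 fragments it ranked 721, whereas its control background was the lowest that the list allows. Of the 644 peaks whose background was the genome rate, Dtx4 had the most anti-IFNAR1 fragments. The next was the TSS peak of Katna1, which encodes a microtubule-severing protein, with 46 fragments and a fold of 12.4, and the median of the 643 others was 17 fragments. Among the 627 peaks with 65 to 79 fragments, within 10% of Dtx4, the median background was 4.00 control fragments and the median fold 4.49. Only 16 of these 627 (2.55%) had a background below 1 fragment, against 2021 of all 6395 (31.6%), and Dtx4 had the lowest of them. A peak with few fragments could be listed only over a low background, so part of this contrast was set by the q cutoff.

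**Figure D2:**
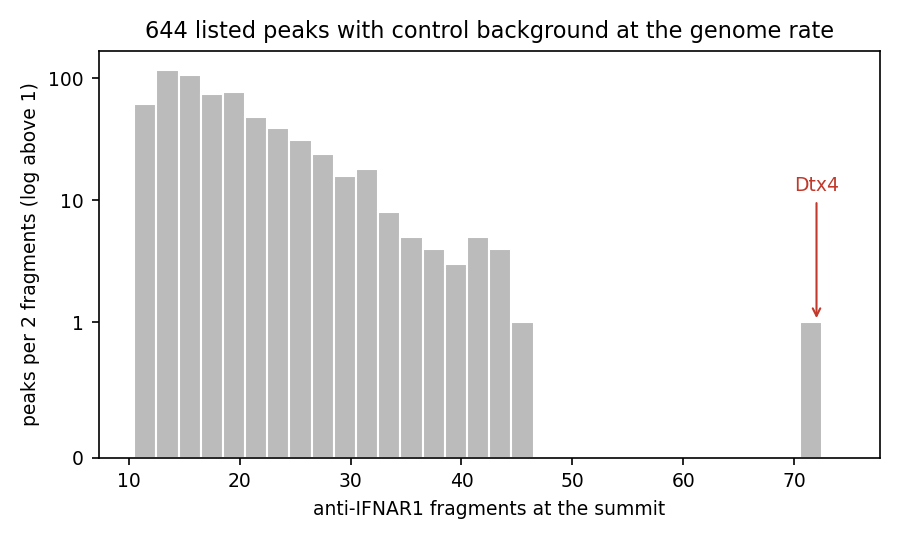
Histogram of the anti-IFNAR1 fragments at the summit (x axis) of the 644 listed peaks whose control IgG background was the genome-wide rate, in bins 2 fragments wide, with the number of peaks on the y axis (logarithmic above 1). The Dtx4 peak stands at 72 fragments, and all others lie at 46 or below.

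The peaks next to Dtx4 in fold were, above it, those of Mpp7 (34.4) and Kdm3b (20.3) and, below it, those of Bfar (17.3) and Exosc8 (16.7). Mpp7 encodes a scaffold protein, Kdm3b a histone demethylase, Bfar an apoptosis regulator and Exosc8 a subunit of the RNA exosome. All 4 had a background above the genome rate, from 0.189 at Kdm3b to 0.425 at Mpp7. The Bfar peak held 72 anti-IFNAR1 fragments, the same number as Dtx4. Its background of 0.236 was read as 1 control fragment within 1 kb, though a count in the 10 kb window can give the same value. With the same formula, 1 control fragment at the Dtx4 summit would have given a fold of 10.7 and rank 74, 2 a fold of 7.12 and rank 664, and 3 a fold of 5.34 and rank 2195.

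Notch1 encodes the main Notch receptor of the T lineage. Its peak spanned chr2:26502504-26503975 (mm10), and at 1471 bp it was the widest of the 4. The summit lay 529 bp downstream of the start of its transcript, on the minus strand. It held 71 anti-IFNAR1 fragments, or 20.1 on the control scale (exact Poisson 95% interval 15.7 to 25.3), against a control IgG background of 1.42, read as 6 fragments in 1 kb. The coverage on the anti-IFNAR1 side was thus within 1 fragment of that at Dtx4. At the summit itself the control side held 0 or 1 fragment, and with 1 the depth-scaled ratio was 20.1 (exact 95% interval 3.49 to 804). The difference between the folds of Dtx4 and Notch1 therefore rested on the control background, with 0 fragments within 1 kb at Dtx4 and a reading of 6 at Notch1. The peak also overlapped the RefSeq span of Gm35978, a long noncoding RNA gene beside Notch1, at the edge nearest Notch1.

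Maml1 and Rbpj encode partners in the same nuclear complex. The Maml1 peak, chr11:50291994-50292490 (mm10), was the narrowest at 496 bp, with its summit 449 bp upstream of the start of its transcript and 82 bp downstream of the gene start in the RefSeq promoter table. It held 37 anti-IFNAR1 fragments, 10.5 on the control scale (exact Poisson 95% interval 7.36 to 14.4), against a background of 0.472, read as 2 control fragments in 1 kb, with 0 at the summit. Against the limit of 3 control fragments, the depth-scaled ratio was 3.49, without the counting error of the 37 anti-IFNAR1 fragments. By fragments this peak ranked 3671 of 6395, by fold 426.

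The Rbpj peak, chr5:53589134-53590328 (mm10), was 1194 bp wide, with its summit 1399 bp upstream of the start of its transcript and 764 bp upstream of the nearest RefSeq promoter start. The summit nevertheless lay inside the RefSeq span of Rbpj, 33.8 kb from the span's start. This peak was the most covered of the 4 on both sides, with 82 anti-IFNAR1 fragments, 23.2 on the control scale (exact Poisson 95% interval 18.4 to 28.8), against 4 control IgG fragments at the summit. The depth-scaled ratio was 5.80 (exact 95% interval 2.18 to 21.8). Rbpj ranked 393 by fragments and 3051 by fold, near the middle of the list. Of the 4 peaks it was the only one whose background was counted at the summit.

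**Figure D3:**
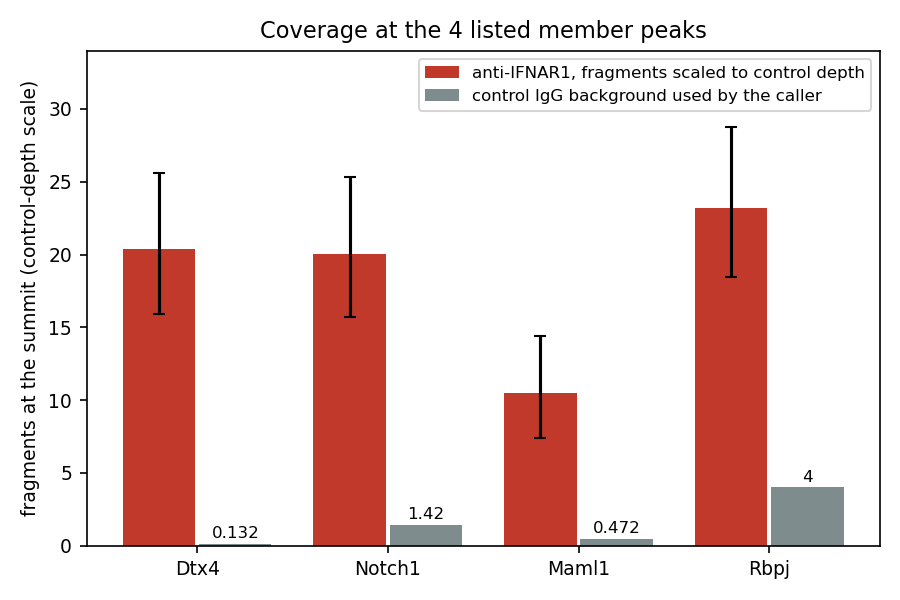
Bars give, for each of the 4 listed genes, the anti-IFNAR1 fragments at the summit scaled to the control depth (red, with exact Poisson 95% intervals) and the control IgG background that entered the fold (grey, no error available). Dtx4, Notch1 and Rbpj have red bars of 20.4, 20.1 and 23.2 with overlapping intervals, while their grey bars are 0.132, 1.42 and 4.00.

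**Figure D4:**
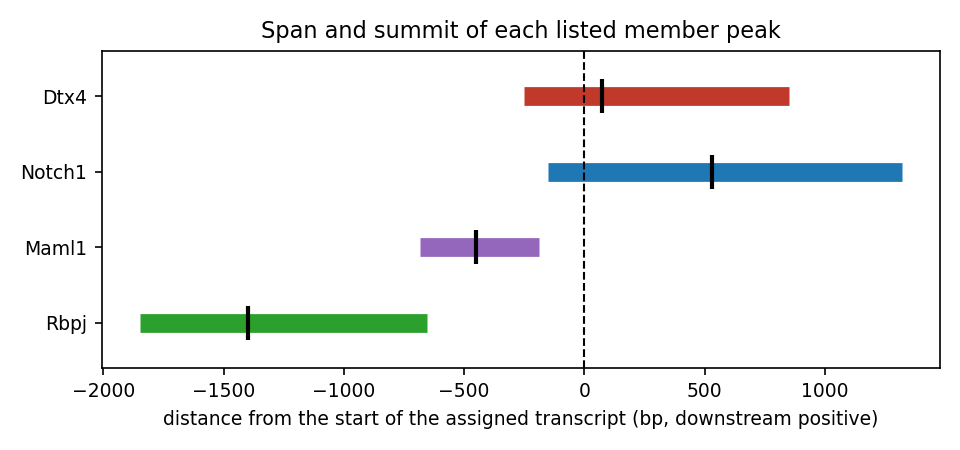
Horizontal bars show the span of each listed peak and black ticks its summit, as distance in bp from the start of the transcript that the file assigned (dashed line, downstream positive). The Dtx4 and Notch1 peaks cover the start, and the Maml1 and Rbpj peaks end 189 bp and 653 bp upstream of it.

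Promoter sequences of Notch1, Rbpj and Maml1, from RefSeq (GRCm38.p6), are shown because each is partly covered by a listed peak. Each window runs from 250 bases before to 50 after a gene start, in the direction of the gene, with matches to the RBPJ core TGGGAA or the HES N box CACNAG in capitals, both strands searched. Positions count from 1 at the 5′ end. The peak covered bases 98 to 300 of the Notch1 window (chr2:26503773-26504072, minus strand), 1 to 233 of the Rbpj window (chr5:53590096-53590395, plus strand) and 97 to 300 of the Maml1 window (chr11:50292287-50292586, minus strand).
Notch1: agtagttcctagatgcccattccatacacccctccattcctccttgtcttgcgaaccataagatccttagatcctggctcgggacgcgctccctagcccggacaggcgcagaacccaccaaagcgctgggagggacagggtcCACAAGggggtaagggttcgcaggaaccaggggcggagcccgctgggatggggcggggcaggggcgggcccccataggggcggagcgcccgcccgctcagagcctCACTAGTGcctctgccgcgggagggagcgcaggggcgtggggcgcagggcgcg
Rbpj: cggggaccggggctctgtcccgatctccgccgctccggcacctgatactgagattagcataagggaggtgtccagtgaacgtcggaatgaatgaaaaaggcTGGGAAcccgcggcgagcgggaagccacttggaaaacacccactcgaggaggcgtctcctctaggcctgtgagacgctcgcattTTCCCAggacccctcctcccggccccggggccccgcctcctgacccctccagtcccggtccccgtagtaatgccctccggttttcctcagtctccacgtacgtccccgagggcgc
Maml1: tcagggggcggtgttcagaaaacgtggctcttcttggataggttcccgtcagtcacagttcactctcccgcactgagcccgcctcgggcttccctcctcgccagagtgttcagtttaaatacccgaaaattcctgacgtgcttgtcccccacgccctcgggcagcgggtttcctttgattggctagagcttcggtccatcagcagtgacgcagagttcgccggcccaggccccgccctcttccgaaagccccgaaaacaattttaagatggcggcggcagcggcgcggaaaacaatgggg

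The Rbpj window held 2 matches to the RBPJ core, at positions 102 and 186 and on opposite strands, both inside the covered part. The Notch1 window held none and had 3 matches to the HES N box, at 143, 248 and 250, where the last 2 overlap on opposite strands. The Maml1 window held no match to any motif searched. Promoter windows were searched for 7 of the 9 genes, 9 windows in all. Those of Dtx4 and Hes1 were not analysed here. A second, overlapping Rbpj window shares the match at 186. The RBPJ core was in 4 of these 9 windows, of Rbpj, Dtx2 and Maml2, beside 25.6% of all 32851 windows, and the N box in 5 of 9 beside 42.5%. The longer RBPJ site CGTGGGAA, which contains the core, and the ETS motif CCGGAAG were in none of the 9, beside 0.734% and 8.86% of all windows. The HES class C site CACGNG was in 2 (Dtx1 and Notch2, 27.5% of all windows), and the interferon-type motifs TTCNNNGAA (GAS) and GAAANNGAA (ISRE-type pair) were each in 1, that of Dtx2 (8.30% and 8.56%). In the Dtx2 window the GAS match overlaps the RBPJ core. GC content was 68.3% in the Notch1 window, 64.7% in the printed Rbpj window and 59.3% in the Maml1 window, with a median of 52.7% over all windows. These matches describe letters, not binding.

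The 5 members without a row were Dtx1, Dtx2, Notch2, Hes1 and Maml2. Dtx1 encodes the Deltex ligase tied to T cell anergy in mice, and Dtx2 a close relative. The nearest listed peak to Dtx1 lay 30.8 kb away at the TSS of Rasal1, and that to Dtx2 51.0 kb away at the TSS of Rasa4. Notch2, the receptor that marginal zone B cells need, had no listed peak within 100 kb, the nearest being 198 kb away. Hes1, the classic transcriptional target of Notch, had none within 100 kb either, the nearest lying 321 kb away at Atp13a3.

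Maml2, a further Mastermind-like coactivator gene, differed from these 4 in that its RefSeq span held 2 listed peaks that the file calls intergenic and gives no gene name. The first, chr9:13465974-13467128 (mm10), had 34 anti-IFNAR1 fragments against a control IgG background of 0.142 and a fold of 9.30, which ranked 151 of 6395 and lay above the Notch1 fold. Its summit was 170 kb into the span. The second, chr9:13296703-13297324, had 23 fragments against a background of 0.236, a fold of 6.07, and its summit 0.316 kb from the start of the span. Neither site had a control fragment at its summit. Against the limit of 3 control fragments, their depth-scaled ratios were 3.20 and 2.17, without the counting error of the 34 and 23 anti-IFNAR1 fragments. With a peak within 5 kb of the RefSeq span as the rule, 5 of 9 members were listed, beside 29.1% of protein-coding genes.

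Of a wider list of 85 Notch pathway genes, the 9 members included, 32 had a row (37.6%, beside 21.1% of protein-coding genes). A TSS peak was listed for 27 of the 85 (31.8%, beside 18.5%). These 32 genes had 37 peaks with a median fold of 4.52, beside 4.74 over all listed peaks, and 4.43 without the members. By the peak with the smallest q, 15 of the 32 genes lay above the list's median. Dtx4 had the highest fold of the 32 genes, Notch1 ranked 5, Maml1 6 and Rbpj 13. By role, the share listed was 0% for ligands, 50% for receptors, 30% for processing and trafficking, 50% for the nuclear complex and coactivators, 56.3% for corepressors, 20% for Deltex genes, 28.6% for negative regulators, 42.9% for HES and HEY genes and 44.4% for T cell targets, each to be read beside the 21.1% of protein-coding genes and over 4 to 20 genes. No test was made of these shares.

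None of the 7 ligand genes was listed, Dll1, Dll4, Jag1 and Jag2 among them. Of the 4 receptor genes, Notch1 and Notch4 were listed and Notch2 and Notch3 were not. Notch4, known mainly from endothelium, had 53 anti-IFNAR1 fragments against 4 control fragments, a fold of 3.20 and a q of 0.0163, below the folds of all 4 members. Of 20 genes for receptor processing and ligand trafficking, 6 were listed. Mfng, a Fringe glycosyltransferase that tunes the receptor's choice of ligand, had a fold of 10.3 with 50 fragments against a background of 0.472, second to Dtx4 in the whole pathway. Pofut1, which adds the fucose that Fringe extends, had 6.55, and the γ-secretase subunit gene Aph1b had 4.08. Neurl3 and Adam10 were also listed, while Mib1, Ncstn, Lfng and Furin had no row.

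Among the 10 genes of the nuclear complex and its coactivators, 5 were listed. Beside Maml1 and Rbpj these were the acetyltransferase genes Kat2b, at a fold of 6.58 and q of 4.08e-07, and Crebbp, and the remaining Mastermind-like gene, Maml3. The Maml3 peak lay in intron 1, 2347 bp from the gene's start, and held 51 anti-IFNAR1 fragments against a background of 4.25 and a fold of 2.94. Its q was 0.0303, and by fold it ranked 6235 of 6395. Maml1 and Maml3 thus had a named listed peak, whereas Maml2 had 2 unnamed ones inside its span. By the wider rule of a peak within 5 kb of the span, 29.1% of protein-coding genes were listed. No test was made of this family. The best folds were in the order Maml2, Maml1, Maml3. The Maml2 peaks carry no gene name, and its span of 412973 bp leaves much room for a peak. Ep300, Kat2a, Snw1 and Rbpjl had no row.

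Corepressors that RBPJ can carry were listed in 9 of 16 cases. L3mbtl3, a chromatin reader that binds RBPJ, had TSS peaks with folds of 8.75 and 6.79. Tle3, a Groucho-family corepressor, had TSS peaks with folds of 5.14 and 5.07. The histone deacetylase gene Hdac2 had 4.76 and the H3K4 demethylase gene Kdm5a 4.49. Hdac1, Cir1, Spen and Ctbp1 were also listed, with folds between 3.44 and 4.15 at the peak with the smallest q. Of 5 Deltex genes only Dtx4 had a row, and Dtx1, Dtx2, Dtx3 and Dtx3l had none. Negative regulators were listed in 2 of 7 cases, Nrarp, a feedback inhibitor induced by Notch, with 4.39 and the ubiquitin ligase gene Cbl with 3.52. Numb, Itch and Fbxw7 had no row.

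Among the 7 HES and HEY genes, Hey1 had a TSS peak with a fold of 6.07 at 22 anti-IFNAR1 fragments, Hes6 one with 4.75, and Hes7 a peak at its transcript end with 3.25. Hes1, Hes5, Hey2 and Heyl had no row. Of 9 genes known as Notch targets in T cells, 4 were listed: Myc with a fold of 8.73, Tcf7 with 6.71, Il2ra with 4.13 in intron 1, and Gata3 with 2.89 at its peak with the smallest q and 4.52 at its other TSS peak. The Gata3 site held 68 anti-IFNAR1 fragments against 6 control fragments.

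**Figure D5:**
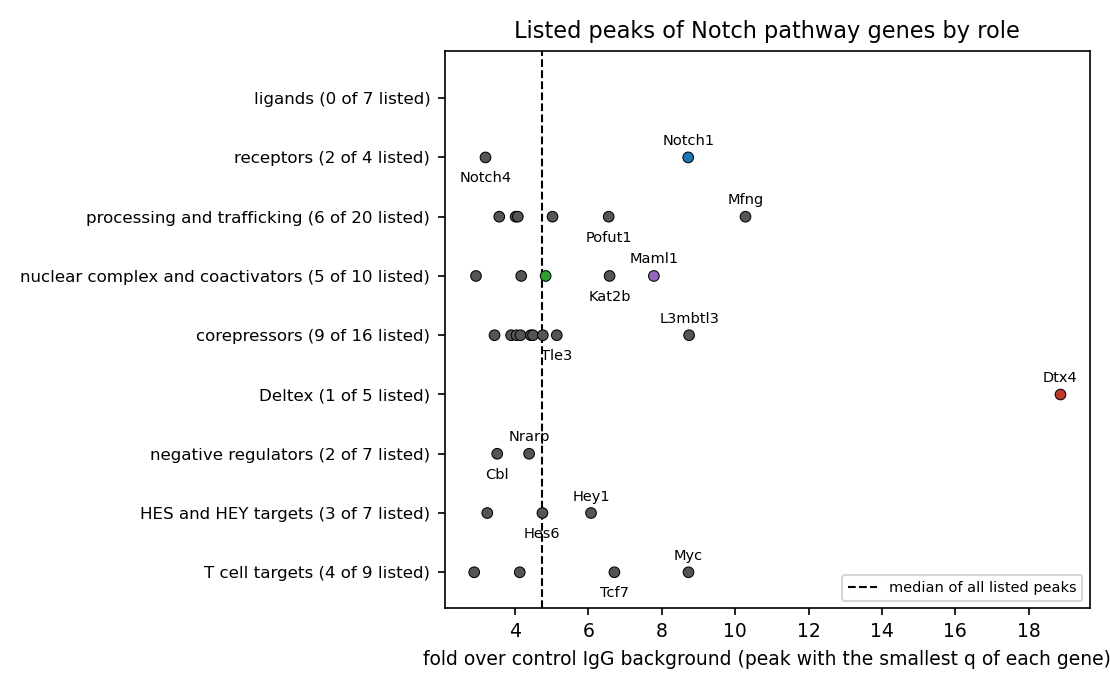
Each point is 1 of the 32 listed Notch pathway genes, placed by role (y axis, with the number listed of those on the list) and by the fold over the control IgG background at its peak with the smallest q (x axis), with the members Dtx4 (red), Notch1 (blue), Maml1 (purple) and Rbpj (green) in colour. The dashed line is the median fold of all listed peaks, 4.74, and Dtx4 at 18.9 stands to the right of the second gene, Mfng, at 10.3.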

How the data were processed

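ATAC-seq of sorted Tfh cells from 7 samples was used as 1 deposited peak list, and groups were taken from the treatment labels. The submitters' processing notes name build mm10 and the tools bedtools, DESeq2, DiffBind (2.0.7), MACS2 (2.1.0.20150420) and BWA (0.7.9a), without role or order. No source used here states how cut sites and duplicates were handled. Per the file headers, the deposited values are the pileup (signal at the summit) and the fold enrichment (a ratio). The headers of the columns read as −log10 p and −log10 q were damaged in the deposited file, and −log10 p values calculated from the Poisson tail came within 0.000111 of the first. The peak names state IFN against Ig, from which the direction was read. That the samples of each group were pooled is assumed, and 0 columns carry a sample, so depth per sample is unknown.

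Pileups were whole multiples of 0.283 (tolerance 0.005), which gave fragments. Backgrounds followed from the fold with a pseudocount of 1 and a fragment length of 236 bp. A value equal to k fragments in 1 kb also equals 10 times k in 10 kb and was read as 1 kb. Recovery was tested on peaks generated with known counts by the same formula. Peaks with a 10 kb background that also fits 1 kb were left out of the score for the background's source. The test therefore cannot decide between these 2 readings. Intervals are exact (Clopper-Pearson for ratios, Poisson for fragments) at 95% and cover counting error only. Gene spans and promoters are RefSeq GRCm38.p6, and 5146 peaks matched a protein-coding gene there by name. Python 3.11.15, pandas 2.3.3 and SciPy 1.17.1 were used.

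Members and the wider pathway list were chosen with earlier results of these data known. Named genes are the members, listed pathway genes by role (values for up to 4 per role, by smallest q) and the 2 peaks on each side of Dtx4 in fold. Katna1 and the genes nearest to unlisted members were named after their values were seen. The planned fit per sample could not be made. Some listed pathway genes are counted but not reported here by name.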

Additional observations from a re-analysis of the deposited data

How the results depend on the processing

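No paired analysis was possible because the deposited list has no column for a sample, and for the same reason no sample could be left out. The 4 listed members and their 4 peaks stayed at a q of 0.01, at a q of 0.001 and with TSS peaks alone, fell to 3 with a pileup of at least 20, which drops Maml1, and the members became 5 with the RefSeq span rule, which adds Maml2. The median fold of member peaks moved from 8.25 to 7.79 without Dtx4. The rank of Dtx4 by fold was 3 over the list and with a pileup of at least 20, 2 among TSS peaks and 1 among peaks within 10% of its fragments. The Dtx4 fold of 18.9 became 10.7 with 1 and 5.34 with 3 control fragments put at the summit, and 6.78 as a depth-scaled ratio against the limit of 3. Of the 85 wider pathway genes, 32 were listed (37.6%, beside 21.1% of protein-coding genes). By TSS peaks 27 were listed (31.8%, beside 18.5%), and by span 41 (48.2%, beside 29.1%). At a q of 0.01, 25 were listed, and the share of all protein-coding genes at that q was not calculated. The median fold of the wider pathway peaks was 4.52, or 4.43 without the members. The added control fragments, the ranking within 10% and the median without members were chosen after seeing the data.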

Other observations

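Within 100 kb of Dtx1, which had no row, lay 2 listed peaks of Rita1, whose human protein binds RBPJ and exports it from the nucleus. Rita1 was not on the pathway list and was chosen after its values were seen. Its TSS peak at chr5:120604987-120605863 (mm10) had 21 anti-IFNAR1 fragments against a control IgG background at the genome rate of 0.132, as at Dtx4, and a fold of 6.13. Its other TSS peak, at chr5:120612688-120613361, had 107 anti-IFNAR1 fragments against 14 control fragments, and its fold of 2.08 was the lowest of all 6395 listed peaks. The pair lay 74.3 kb and 66.8 kb from Dtx1. Within 100 kb of Dtx4, the other listed peaks were those of Fam111a, with 36 anti-IFNAR1 fragments against a background of 2.12 and a fold of 3.58, and of A330040F15Rik, with 27 against 1 and a fold of 4.32. Both had a higher control background than Dtx4. No test was made of these values.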
